A study of Homo sapiens with 31 samples.

Results

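The genes described here encode enzymes of the intestinal brush border, the layer of microvilli on the lumen-facing side of enterocytes. The set holds 8 membrane peptidases, ANPEP, DPP4, ENPEP, ACE, MEP1A, MEP1B, XPNPEP2 and MME, and the intestinal alkaline phosphatase ALPI. Members were taken from probe sets whose annotation named a single gene, keeping the brightest probe set of a gene by its mean over all 31 arrays. All 9 members were measured, each by 1 probe set, among 22395 genes with a value.

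The cells were Caco-2 (HTB-37), a line from a human colorectal adenocarcinoma whose confluent cultures take on features of absorptive enterocytes. At passage 29 to 45 they were seeded at 75000 cells per cm2 and cultured for 21 days, either static on Transwell PET inserts or inside a microfluidic gut-on-chip. Flow in the chip was 100 µL/h, which gave a shear near 0.002 dyne/cm2. They then received TiO2 or ZnO nanomaterial for 6 h. On Transwell the dose was 500 µL of TiO2 at 50 µg/mL or of ZnO at 10 µg/mL. Chips were filled over about 42 min with TiO2 at 100 µg/mL or ZnO at 80 µg/mL, after which the flow was stopped. The nominal doses therefore differed between the systems, while the deposited doses were modelled as equal, per the labels. Each nanomaterial had a control of its own in each system, the dispersion medium without metal, called here the TiO2 control and the ZnO control medium. This gave 8 groups with 4 arrays each, except 3 for TiO2 on Transwell. The labels do not say that the replicates were separate cultures, so p-values measure only the spread between these samples, which may be technical. A comparison of chip with Transwell covers the device, its membrane and the flow together, and these cannot be told apart.

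Brush border peptidases finish the digestion of dietary protein. Endopeptidases cut within the chain, aminopeptidases and dipeptidyl peptidases trim its ends, and the resulting amino acids and small peptides are taken up by transporters in the same membrane. Several of these enzymes also inactivate peptide hormones, and alkaline phosphatase removes phosphate from luminal substrates, including bacterial lipopolysaccharide. Their expression rises as enterocytes mature along the villus, and Caco-2 cells gain part of it after confluence. The transcription factors of the HNF1, HNF4, CDX and GATA families are known to act at promoters of brush border genes.

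All values are log2 intensities deposited after RMA, which aligns the distributions of the arrays. A difference of 1 is therefore a doubling, and levels of different probe sets are not comparable with each other. Array medians over all probe sets ran from 3.24 to 3.33, and a level at or under them is not shown to be above background. The number of arrays limits the precision. Correlations between arrays ran from 0.942 to 0.987 and 0 pairs were identical. Differences were tested with limma, a linear model with a shared estimate of the spread, over all 22395 genes. Differences passed at a Benjamini-Hochberg adjusted p below 0.05. Overlap of single arrays is given as a description. Its share over all genes was counted only for all chip against all Transwell arrays, where 3.8% had every chip array lower. For smaller sets of arrays and for partial overlap, no such share was counted.

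The labelled cell type was checked against marker lists. Enterocyte markers were present in both systems, with 12 of 13 measured markers above every array median in the chip and all 13 on Transwell. The actin-bundling protein VIL1 averaged 10.33 in the chip and 11.08 on Transwell, and the cadherin CDH17 11.9 and 12.09. FABP2, an intestinal fatty acid carrier, averaged 2.02 in the chip, under the array medians, and 6.49 on Transwell. All 7 general epithelial markers were above the medians in both systems. Of the 8 colonocyte markers, CA1, CA4, AQP8 and MS4A12 were not above the medians. The other 4 were above in both systems. SLC26A3 averaged 9.53 in the chip and 10.96 on Transwell, and GUCA2A 9.72 and 9.62. CEACAM7 averaged 6.89 and 4.81, and GUCA2B 6.24 and 6.59. Of the 12 measured stromal and immune markers, PTPRC, DCN, COL1A2, CD3E and VWF were above the medians in neither system, ITGAM averaged 3.41 in the chip and 2.7 on Transwell, and CD68, LUM, COL1A1, CD14, PDGFRB and CDH5 were above in both. CD68 averaged 11.39 in the chip and 10.69 on Transwell, LUM 6.69 and 7.55, COL1A1 5.82 and 5.93, and CD14 5.75 and 5.61. PDGFRB averaged 3.53 in the chip and 4.26 on Transwell, and CDH5 3.82 and 3.35. Of 11 measured goblet, Paneth and enteroendocrine markers, DEFA5, DEFA6, CHGA, GCG and SPINK4 were not above the medians. ZG16, LYZ, TFF3, CHGB, MUC2 and FCGBP were above in both systems. ZG16 averaged 7.88 in the chip and 9.96 on Transwell, and LYZ 6.9 and 6.06. The mean level of the stromal and immune list in single arrays spanned 4.07 to 4.57 in the chip and 4.09 to 4.39 on Transwell.

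Some chip arrays stood apart from their group. In the chip, replicate 4 of the TiO2 group and replicate 4 of its control differed from replicates 1 to 3 in several members. Over 14303 brighter genes that are not members, the root mean square distance of TiO2 replicate 4 had a median of 0.483 to the other arrays of the TiO2 set and 0.469 to the arrays of the ZnO set. For control replicate 4 these medians were 0.447 and 0.403. The other 6 arrays of the chip TiO2 set were nearer to their own set. Results that rest on these 2 arrays are given with and without them. In the chip ZnO control group, replicate 3 stood apart in ANPEP and XPNPEP2.

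Promoter sequences are shown for XPNPEP2, MEP1B, ANPEP and ALPI, which had a lower level in the chip, because binding sites for the factors named above can be looked for in them. They are the 250 bases upstream of a RefSeq transcription start in GRCh38.p14, written 5′ to 3′ on the strand of the gene, and 8 of the 9 members had an entry, MEP1A being the exception. Capitals mark matches to GTTAAT, a half-site of HNF1, to CAAAGTCC, a half-site of HNF4, to TTTAT, the core of CDX sites, or to GATAA, the core of GATA sites, on either strand. The XPNPEP2 window lies at chrX:129738729-129738978 on the plus strand and held no match. The MEP1B window lies at chr18:32189789-32190038 on the plus strand and held 1 TTTAT, seen on this strand as ATAAA. The ANPEP window lies at chr15:89806629-89806878 on the minus strand, upstream of the start nearer to the coding sequence, and held 1 GTTAAT. The ALPI window lies at chr2:232455903-232456152 on the plus strand and held 1 CAAAGTCC. Not shown are the window of DPP4, also lower in the chip, and the upstream window of ANPEP, neither with a match.
XPNPEP2: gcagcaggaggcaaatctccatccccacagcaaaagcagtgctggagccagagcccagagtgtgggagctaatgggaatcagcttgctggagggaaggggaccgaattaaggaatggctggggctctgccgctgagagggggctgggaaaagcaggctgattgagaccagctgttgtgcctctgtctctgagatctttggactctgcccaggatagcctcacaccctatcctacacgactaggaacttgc
MEP1B: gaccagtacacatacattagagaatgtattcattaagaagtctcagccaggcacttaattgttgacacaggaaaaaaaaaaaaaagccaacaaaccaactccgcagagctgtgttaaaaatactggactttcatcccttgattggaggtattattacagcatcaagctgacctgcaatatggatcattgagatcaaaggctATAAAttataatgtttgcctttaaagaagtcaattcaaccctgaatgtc
ANPEP: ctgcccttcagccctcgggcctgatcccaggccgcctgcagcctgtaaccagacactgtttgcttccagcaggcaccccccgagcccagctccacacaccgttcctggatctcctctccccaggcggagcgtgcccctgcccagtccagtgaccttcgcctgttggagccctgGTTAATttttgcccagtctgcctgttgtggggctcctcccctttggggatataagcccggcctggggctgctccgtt
ALPI: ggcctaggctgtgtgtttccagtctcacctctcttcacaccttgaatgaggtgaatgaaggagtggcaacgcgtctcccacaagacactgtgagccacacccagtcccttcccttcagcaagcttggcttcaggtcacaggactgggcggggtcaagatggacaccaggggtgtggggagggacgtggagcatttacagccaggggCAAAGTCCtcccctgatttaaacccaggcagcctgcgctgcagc

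These motifs are short and common. Among 35116 upstream windows of the same length, GTTAAT occurred in 6.23%, CAAAGTCC in 1.02%, TTTAT in 32.7% and GATAA in 20.4%. Of the other members' windows, that of ENPEP held 2 TTTAT and 1 GATAA, 1 of the 2 ACE windows held a TTTAT, and the windows of DPP4 and MME and the upstream window of ANPEP held none. A match describes the letters of the window and is not a site.

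In control media, 6 of the 9 members passed for chip against Transwell, all lower in the chip: XPNPEP2, MEP1B, MEP1A, ANPEP, ALPI and DPP4. Over all genes 33.5% passed in this comparison, and 18.9% passed with a lower level in the chip. The median log2 difference of the 9 members was -0.51, beside -0.0037 over all genes. ENPEP, ACE and MME did not pass. In bulk cultures such as these, fewer cells of a type and less RNA per cell cannot be told apart.

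**Figure D1:**
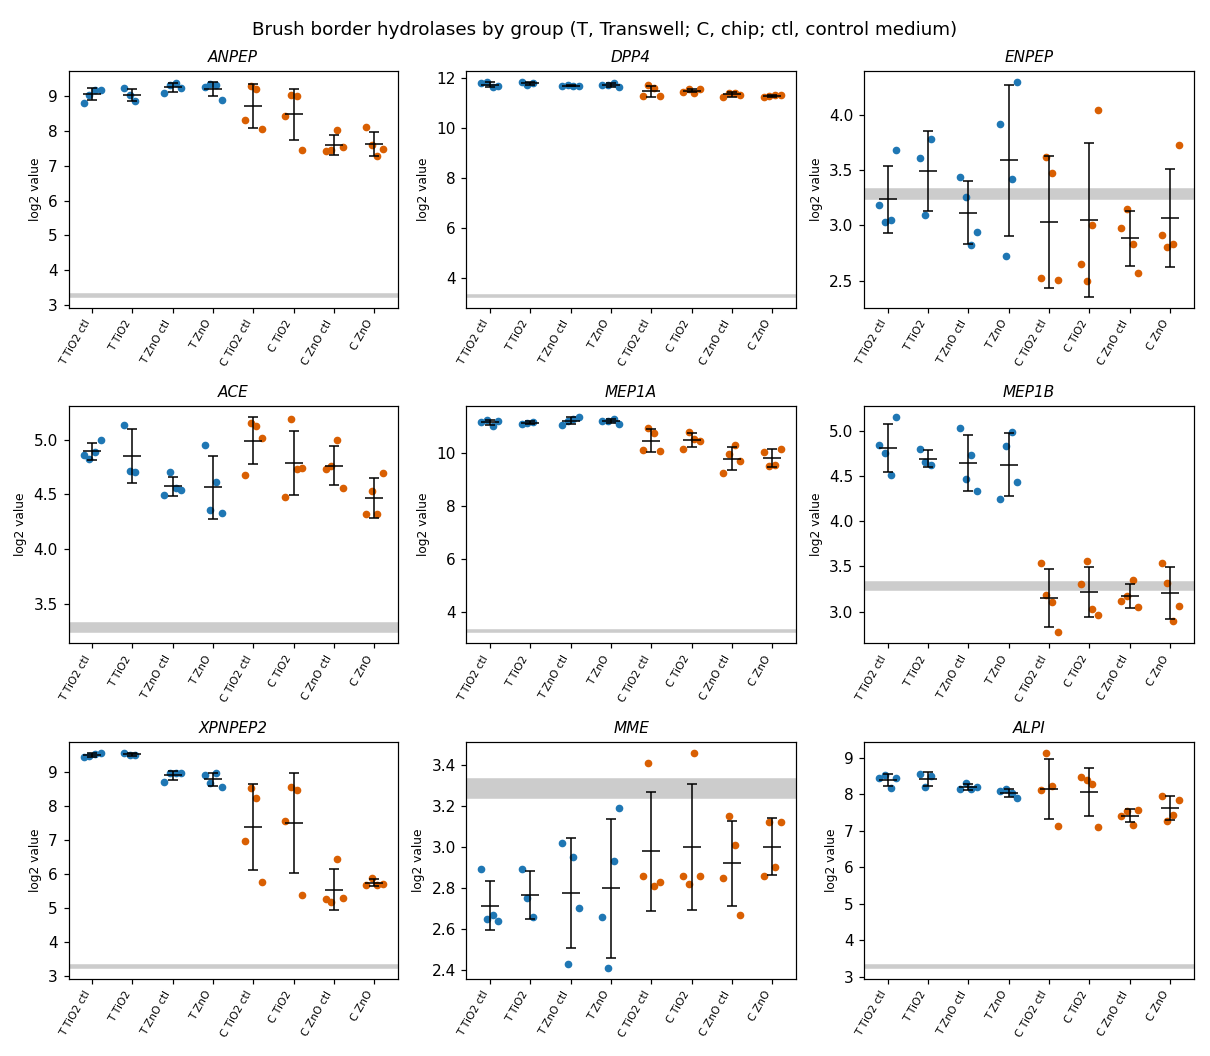
Log2 values of the 9 members in the 8 groups. Points are arrays (blue Transwell, orange chip), black bars the mean ± SD of 3 or 4 arrays, and the grey band the range of array medians, 3.24 to 3.33; axes differ between panels. MEP1A and MEP1B are lower in all 16 chip arrays than in all 15 Transwell arrays, and the chip values of MEP1B lie around the grey band.

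XPNPEP2, aminopeptidase P, releases an N-terminal amino acid when proline follows it. It had the largest difference of the members. On Transwell its levels were 9.44, 9.49, 9.53 and 9.58 in TiO2 control medium and 8.71, 8.97, 8.99 and 8.98 in ZnO control medium. In the chip they were 6.98, 8.53, 8.23 and 5.78 in TiO2 control medium and 5.26, 5.18, 6.44 and 5.30 in ZnO control medium. All 8 chip arrays lay below all 8 Transwell arrays in control media. After exposure the Transwell levels were 9.58, 9.50 and 9.50 with TiO2 and 8.93, 8.69, 8.97 and 8.58 with ZnO. The chip levels were 7.57, 8.58, 8.48 and 5.39 with TiO2 and 5.69, 5.89, 5.67 and 5.72 with ZnO. Over all arrays only chip TiO2 replicate 2 reached the lowest Transwell array, both at 8.58 after rounding. The log2 difference of chip against Transwell over both control media was -2.75 ± 0.340 (SE), a 6.72-fold lower level in the chip, with a limma adjusted p of 1.61e-07. The spread between chip arrays was wide in the TiO2 set. The SD was 1.26 in control medium and 1.48 after TiO2, and at most 0.189 in any Transwell group. Without replicate 4 of the chip TiO2 set and of its control, the difference over both media was -2.48 with an adjusted p of 7.47e-11.

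DPP4, dipeptidyl peptidase IV, removes N-terminal dipeptides that end in proline or alanine and inactivates incretin hormones. On Transwell it read 11.82, 11.84, 11.65 and 11.70 in TiO2 control medium and 11.71, 11.72, 11.68 and 11.71 in ZnO control medium. Chip arrays read 11.29, 11.73, 11.61 and 11.28 in TiO2 control medium and 11.24, 11.42, 11.42 and 11.34 in ZnO control medium. The shift was small. The spread was widest in chip TiO2 control medium, with an SD of 0.229, and was at most 0.09 in every other group. After exposure the Transwell values were 11.86, 11.74 and 11.83 with TiO2 and 11.75, 11.74, 11.80 and 11.65 with ZnO, and the chip values 11.46, 11.57, 11.43 and 11.59 with TiO2 and 11.25, 11.30, 11.32 and 11.34 with ZnO. Of the 16 chip arrays 15 lay below every Transwell array, the exception being TiO2 control replicate 2. The log2 difference over both control media was -0.31 ± 0.065 (SE), 1.24-fold lower, with a limma adjusted p of 0.0003.

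ANPEP, aminopeptidase N or CD13, removes neutral amino acids from the N terminus of peptides. On Transwell its level was 8.80, 9.03, 9.17 and 9.18 in TiO2 control medium and 9.09, 9.31, 9.38 and 9.21 in ZnO control medium. In the chip it was 8.30, 9.29, 9.19 and 8.05 in TiO2 control medium and 7.42, 7.45, 8.03 and 7.52 in ZnO control medium. Chip and Transwell overlapped in TiO2 control medium and did not in ZnO control medium. After exposure it was 9.21, 9.01 and 8.85 with TiO2 and 9.26, 9.34, 9.31 and 8.89 with ZnO on Transwell. Chip arrays were at 8.42, 9.02, 8.99 and 7.45 with TiO2 and 8.10, 7.59, 7.28 and 7.48 with ZnO. Of the 16 chip arrays 12 lay below every Transwell array, and the other 4 were replicates 2 and 3 of the TiO2 group and of its control. Over both control media the difference was -0.99 ± 0.189 (SE) on the log2 scale, 1.99-fold lower, with a limma adjusted p of 0.000106.

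ENPEP, aminopeptidase A, removes acidic N-terminal residues and degrades angiotensin II. Its levels were close to background, from 2.50 to 4.04 with a median of 2.87 in the chip and from 2.72 to 4.30 with a median of 3.26 on Transwell. In 6 of the 8 groups its mean was under every array median of the group, the exceptions being TiO2 and ZnO on Transwell. Over both control media the log2 difference was -0.22, with a 95% interval from -0.68 to 0.24 and an adjusted p of 0.53.

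ACE, angiotensin-converting enzyme, releases dipeptides from the C terminus. It was low but above the array medians in every array, at 4.32 to 5.19 with a median of 4.73 in the chip and 4.33 to 5.13 with a median of 4.70 on Transwell. The ranges nearly coincided. The log2 difference over both control media was 0.14, with a 95% interval from -0.07 to 0.36 and an adjusted p of 0.346.

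The meprins are zinc endopeptidases that cut within peptide chains. MEP1A encodes meprin alpha, whose subunits can be released into the lumen, and MEP1B encodes the membrane-bound meprin beta. MEP1A was high on Transwell, at 11.16, 11.24, 11.01 and 11.23 in TiO2 control medium and 11.05, 11.22, 11.30 and 11.35 in ZnO control medium. Chip levels were 10.10, 10.93, 10.77 and 10.08 in TiO2 control medium and 9.24, 9.96, 10.30 and 9.69 in ZnO control medium. After exposure the Transwell levels were 11.09, 11.15 and 11.19 with TiO2 and 11.21, 11.22, 11.27 and 11.10 with ZnO, and the chip levels 10.17, 10.81, 10.55 and 10.44 with TiO2 and 10.05, 9.50, 9.56 and 10.16 with ZnO. No chip array reached a Transwell array. The log2 difference over both control media was -1.06 ± 0.136 (SE), 2.08-fold lower, with a limma adjusted p of 3.07e-07.

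MEP1B differed between the systems by a similar amount in every medium, from -1.42 to -1.66 on the log2 scale. On Transwell it gave 4.84, 4.75, 4.51 and 5.15 in TiO2 control medium and 5.03, 4.47, 4.73 and 4.33 in ZnO control medium. After exposure it gave 4.80, 4.65 and 4.62 with TiO2 and 4.24, 4.83, 4.99 and 4.43 with ZnO. Chip values were 3.54, 3.18, 3.11 and 2.77 in TiO2 control medium and 3.12, 3.17, 3.35 and 3.05 in ZnO control medium. The exposed chip arrays were in the same range, at 3.31, 3.56, 3.03 and 2.96 with TiO2 and 3.54, 3.32, 2.90 and 3.06 with ZnO. All 16 chip arrays lay below all 15 Transwell arrays, and the mean of each of the 4 chip groups was under every array median of its group. The log2 difference over both control media was -1.57 ± 0.131 (SE), or 2.96-fold, with a limma adjusted p of 1.25e-10. Because the chip level was not shown to be above background, this fold is measured against a level set by background. MEP1A and MEP1B were the members without overlap between the systems, beside 3.8% of all genes with every chip array below every Transwell array.

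MME, neprilysin, cuts peptides before hydrophobic residues. Its mean was under every array median of the group in all 8 groups, and single arrays ran from 2.41 to 3.46, so no level above background was shown for it in either system. The log2 difference over both control media was 0.21, with a 95% interval from -0.04 to 0.45 and an adjusted p of 0.207.

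ALPI, intestinal alkaline phosphatase, is a classical marker of Caco-2 differentiation. On Transwell it read 8.44, 8.52, 8.16 and 8.43 in TiO2 control medium and 8.15, 8.30, 8.13 and 8.20 in ZnO control medium. In the chip it read 8.11, 9.14, 8.23 and 7.13 in TiO2 control medium and 7.40, 7.53, 7.16 and 7.56 in ZnO control medium. TiO2 control replicate 2 of the chip was above every Transwell array and replicate 4 below every Transwell array, while all chip arrays in ZnO control medium were below all Transwell arrays. After exposure the values were 8.54, 8.19 and 8.50 with TiO2 and 8.09, 8.15, 8.03 and 7.89 with ZnO on Transwell, and 8.47, 8.40, 8.27 and 7.09 with TiO2 and 7.94, 7.26, 7.44 and 7.85 with ZnO in the chip. Over both control media the log2 difference was -0.51 ± 0.193 (SE), 1.42-fold lower, with a limma adjusted p of 0.0411. This call was the least stable of the 6. It was lost with the spread of the compared groups alone (adjusted p 0.0514), with array medians aligned (0.066) and with all probe sets tested (0.0681). It passed in 4 of the 16 fits that each left out 1 control array, namely those without chip TiO2 control replicate 2, Transwell TiO2 control replicate 3 and chip ZnO control replicates 2 and 4, and its adjusted p ran from 0.00232 to 0.127. The difference ran from -0.67, without chip TiO2 control replicate 2, to -0.34, without chip TiO2 control replicate 4, and leaving out any of the other 12 control arrays ended the call.

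The difference between the systems was seen in separate arrays for each medium. In TiO2 control medium 4 of 9 members passed, all lower in the chip, beside 22.9% of all genes in either direction and 13.5% lower in the chip. They were XPNPEP2 at -2.13 (adjusted p 0.00136), MEP1B at -1.66 (1.1e-07), MEP1A at -0.69 (0.00889) and DPP4 at -0.27 (0.0297). ANPEP at -0.34 and ALPI at -0.24 did not pass. DPP4 lost its call without chip control replicate 1 or 4 or Transwell control replicate 1 or 2, with adjusted p between 0.079 and 0.131, and had 0.211 with the spread of the compared groups alone. Without chip control replicate 4, XPNPEP2 was at -1.60 (0.0102) and ALPI at 0.10. In ZnO control medium 6 of 9 passed, all lower in the chip, beside 27.2% of all genes and 14.9% lower. XPNPEP2 was at -3.36 (adjusted p 3.02e-06), ANPEP at -1.64 (2e-05), MEP1B at -1.47 (4.47e-07), MEP1A at -1.43 (1.18e-06), ALPI at -0.78 and DPP4 at -0.35 (0.00409). ALPI had an adjusted p of 0.0315 there, and leaving out chip control replicate 1 or 3 or any of the 4 Transwell control arrays brought it to between 0.0506 and 0.0873.

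After TiO2, 4 of 9 members passed, all lower in the chip, beside 18.2% of all genes and 10.2% lower. MEP1B was at -1.47 (adjusted p 3.86e-06), XPNPEP2 at -2.02 (0.00584), MEP1A at -0.65 (0.0269) and DPP4 at -0.30 (0.0326). With the spread taken from the compared groups alone, XPNPEP2 had an adjusted p of 0.0804 and DPP4 0.117. MEP1A lost its call without chip TiO2 replicate 1 or 4 or without any of the 3 Transwell arrays, and DPP4 without chip replicate 1 or 3 or Transwell replicate 1 or 3. Without chip TiO2 replicate 4, XPNPEP2 was at -1.32 with an adjusted p of 0.0269. After ZnO, 5 of 9 passed, all lower in the chip, beside 29.8% of all genes and 16.5% lower. XPNPEP2 was at -3.05 (adjusted p 1.06e-05), ANPEP at -1.59 (2.65e-05), MEP1B at -1.42 (6.18e-07), MEP1A at -1.38 (1.73e-06) and DPP4 at -0.43 (0.000492), while ALPI at -0.42 did not pass (0.292). In both exposed sets ENPEP, ACE and MME did not pass, with differences from -0.52 to 0.24.

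**Figure D2:**
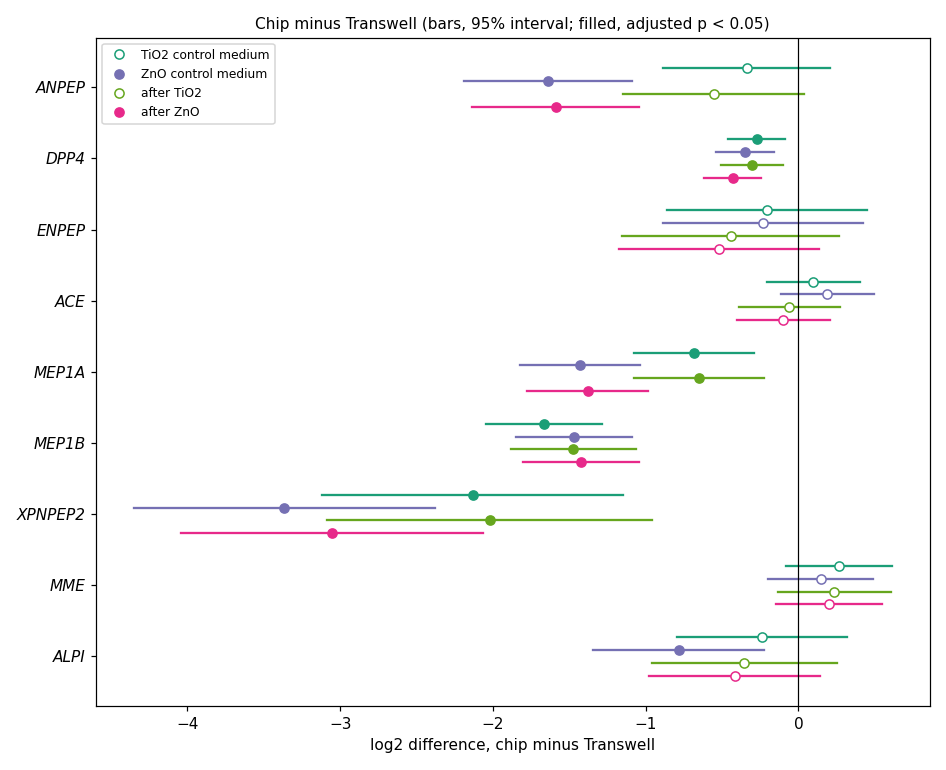
Log2 difference of chip minus Transwell for each member in the 4 media, with 95% intervals. Filled points passed at an adjusted p below 0.05. XPNPEP2, MEP1B, MEP1A and DPP4 are filled in all 4 media, ANPEP in the ZnO control medium (-1.64) and after ZnO (-1.59), and ALPI in the ZnO control medium (-0.78).

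Whether the system difference itself depended on the control medium was tested as an interaction. Of the 9 members 0 passed, beside 2.74% of all genes. ANPEP came closest, with a system difference lower by -1.30 ± 0.378 (SE) in ZnO control medium than in TiO2 control medium and an adjusted p of 0.0576. It passed in 5 of the 10 other settings of the fit, and without chip TiO2 control replicate 1 or 4 or chip ZnO control replicate 3. MEP1A was at -0.74 (adjusted p 0.147), XPNPEP2 at -1.23 (0.398) and ALPI at -0.54 (0.544). MEP1B was at 0.19 (0.8). Without replicate 4 of the chip TiO2 group and of its control, ANPEP at -1.52 (adjusted p 0.0034), XPNPEP2 at -1.77 (0.00865) and ALPI at -0.89 (0.0431) passed. The exposed replicate 4 does not enter this difference and bears only on the shared spread. Without the control replicate 4 alone, the differences were the same, ANPEP passed (0.0208), and XPNPEP2 (0.12) and ALPI (0.152) did not. The arrays left out were picked from these same data, so calls made without them are a description and not a test.

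The control media were also compared within each system, where the medium and the set of cultures that received it cannot be told apart. In the chip, 0 of 9 members passed for ZnO control against TiO2 control, beside 0.058% of all genes. The largest differences were XPNPEP2 at -1.83 (adjusted p 0.138), ANPEP at -1.10 (0.104), ALPI at -0.74 (0.361) and MEP1A at -0.67 (0.189). These values rest on chip TiO2 control replicate 4. Without that array XPNPEP2 was at -2.37 (adjusted p 0.00692), ANPEP at -1.32 (0.0118), ALPI at -1.08 (0.0236) and MEP1A at -0.80 (0.0417), and all 4 passed. The array was picked from these same data and was the lowest of its group in these members. Leaving it out widens the differences by that choice alone, so these calls are a description and not a test. That array read 5.78 for XPNPEP2, against 6.98 to 8.53 in the other 3 of its group and 5.18 to 6.44 in ZnO control medium. For ALPI it read 7.13, against 8.11 to 9.14 and 7.16 to 7.56.

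**Figure D3:**
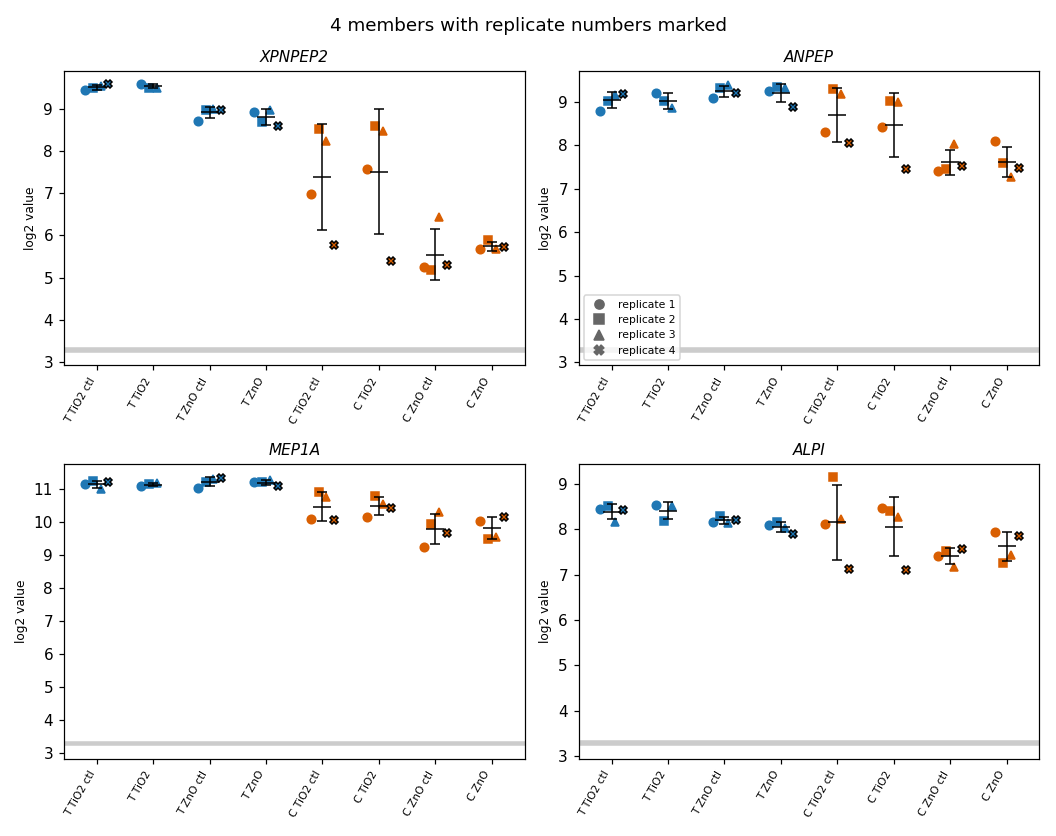
Log2 values of XPNPEP2, ANPEP, MEP1A and ALPI with the replicate number given by the marker (circle 1, square 2, triangle 3, cross 4); bars are mean ± SD, colours blue for Transwell and orange for the chip, and the grey band is the range of array medians. In the chip TiO2 set the crosses of XPNPEP2 (5.39 and 5.78) and ALPI (7.09 and 7.13) lie among or below the values of the chip ZnO set.

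The same pattern was seen in the exposed chip arrays for part of the members. In TiO2 replicate 4 of the chip, XPNPEP2 at 5.39, ANPEP at 7.45 and ALPI at 7.09 were the lowest of their group. MEP1A at 10.44 lay between the other 3 arrays and DPP4 at 11.59 was the highest of its group. The mean level of the 13 enterocyte markers was 7.54 in that array and 7.42 in control replicate 4, within the 7.32 to 7.92 of the chip TiO2 set and above the 6.71 to 7.20 of 7 of the 8 arrays of the chip ZnO set. The eighth, ZnO control replicate 3, had an enterocyte mean of 7.55, and also the highest XPNPEP2 (6.44) and ANPEP (8.03) of its group. On Transwell the enterocyte means were 8.32 to 8.70. The part of differentiation state in these differences was not tested.

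On Transwell, 0 of 9 members passed for ZnO control against TiO2 control, beside 6.64% of all genes. XPNPEP2 did not overlap between the media, at 8.71 to 8.99 in ZnO control and 9.44 to 9.58 in TiO2 control medium, a log2 difference of -0.60. The share of all genes without overlap between these media was not counted. Its adjusted p was 0.561 with the spread shared over all groups, which holds the wide chip TiO2 groups, and 0.0066 with the spread of the 2 groups compared. The exposed Transwell arrays fell in the same bands, at 8.58 to 8.97 with ZnO and 9.50 to 9.58 with TiO2. ACE was at -0.32 with an adjusted p of 0.229, ANPEP at 0.20 and ALPI at -0.19.

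The 8 group means were also put in order for each member. For ANPEP, DPP4, MEP1A, MEP1B and XPNPEP2 the 4 Transwell groups ranked above the 4 chip groups. Neighbours in the order that did not overlap were ZnO control on Transwell over TiO2 in the chip for DPP4, TiO2 on Transwell over TiO2 in the chip for MEP1A, ZnO on Transwell over TiO2 in the chip for MEP1B, and TiO2 control over ZnO control on Transwell for XPNPEP2. All other neighbours overlapped. For ANPEP the means descended from 9.25 ± 0.126 (SD, n = 4) in ZnO control medium on Transwell to 7.61 ± 0.283 (SD, n = 4) in the same medium in the chip. For ALPI the order mixed the systems, with TiO2 on Transwell highest at 8.41 ± 0.19 (SD, n = 3), TiO2 control and TiO2 in the chip at 8.15 and 8.06 above ZnO on Transwell at 8.04, and ZnO control in the chip lowest at 7.41 ± 0.183 (SD, n = 4). For ACE the 4 groups of the ZnO set ranked below the 4 groups of the TiO2 set, from 4.99 in TiO2 control medium to 4.46 with ZnO, both in the chip. For MME the chip groups ranked first, within 2.71 to 3.00 and under the array medians.

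Exposure to nanomaterial gave no call among these genes. For TiO2 in the chip, TiO2 on Transwell, ZnO in the chip and ZnO on Transwell, 0 of 9 members passed with limma, and 0 had an unadjusted p below 0.05. Over all genes 0.0%, 0.0%, 0.272% and 0.0% passed, and 1997, 591, 2109 and 835 genes had an unadjusted p below 0.05. The members' log2 differences ran from -0.24 to 0.12 with TiO2 in the chip and from -0.12 to 0.26 on Transwell. With ZnO they ran from -0.30 to 0.21 in the chip and from -0.15 to 0.47 on Transwell.

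The intervals show what these 6 h exposures could have hidden. For DPP4 the 95% intervals of the 4 exposures lay within -0.24 to 0.27, for MEP1A within -0.44 to 0.41 and for MEP1B within -0.53 to 0.45. For XPNPEP2 they reached from -1.10 to 1.18, so they did not exclude a change of 1 on the log2 scale in at least 1 direction. These intervals use the spread shared over all groups, which holds the wide chip TiO2 groups (SD 1.26 and 1.48). The shared spread is smaller than that of these groups, so the XPNPEP2 interval for TiO2 in the chip is too narrow. On Transwell the SD of XPNPEP2 was 0.051 to 0.189. For MEP1A the SD was 0.264 to 0.447 in chip groups and 0.054 to 0.13 on Transwell. Its chip changes are therefore bounded less tightly than the shared interval shows. Over brighter genes the median SD was 0.219 to 0.237 in chip groups and 0.127 to 0.164 on Transwell. ACE with ZnO in the chip had the smallest unadjusted p of the members, 0.0557, at a log2 difference of -0.30 and an adjusted p of 0.547. Its arrays were 4.32, 4.53, 4.32 and 4.69 with ZnO and 4.73, 4.76, 5.0 and 4.56 in control medium, and the groups overlapped. ENPEP had the largest difference, 0.47 with ZnO on Transwell. Its levels there were 3.92, 2.72, 3.42 and 4.30 with ZnO and 3.44, 3.26, 2.82 and 2.94 in control medium, near the array medians.

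**Figure D4:**
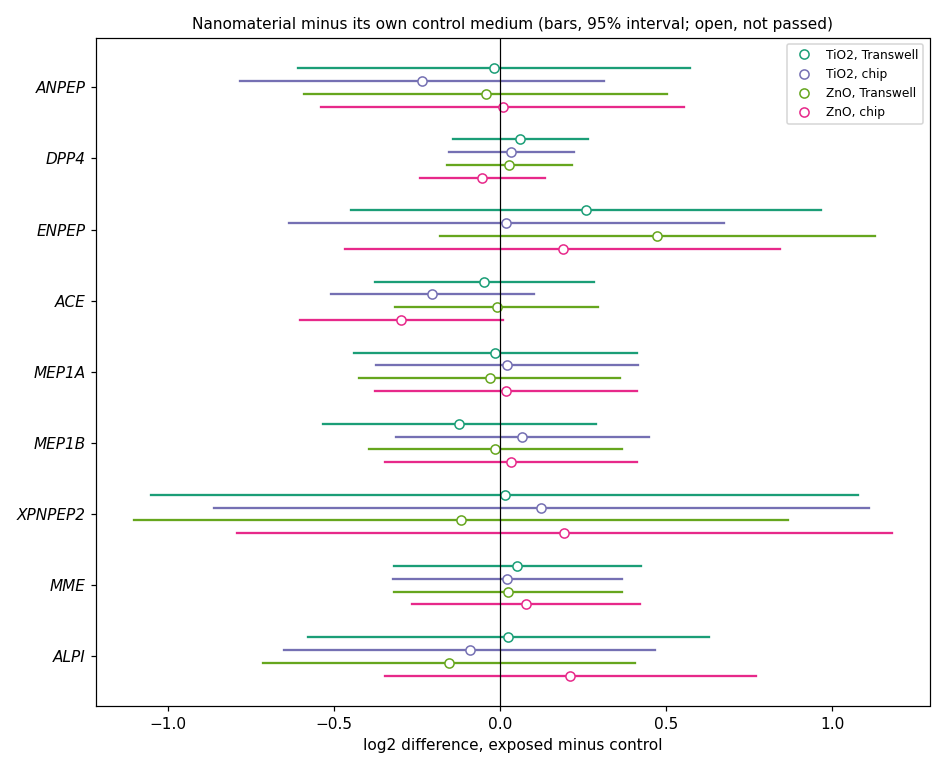
Log2 difference of exposed minus control for each member, for TiO2 and ZnO on Transwell and in the chip, with 95% intervals. All points are open because 0 of 9 members passed in each of the 4 exposures, and differences lie between -0.30 and 0.47.

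The response to an exposure did not differ detectably between the systems either. For the difference of the ZnO responses, chip minus Transwell, 0 of 9 members passed with limma, beside 0.00447% of all genes. For TiO2 0 of 9 passed, beside 0.0% of all genes, and over all genes 1345 and 1214 had an unadjusted p below 0.05. The largest member differences were 0.37 for ALPI and 0.31 for XPNPEP2 with ZnO, and -0.24 for ENPEP and -0.22 for ANPEP with TiO2. Nominal doses differed between the systems, as given above.

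The other alkaline phosphatases were read beside ALPI, since they are paralogs. ALPP and ALPG encode the placental and germ cell forms, which are related to ALPI in sequence, so probes may bind more than 1 of them and single values are uncertain. ALPL encodes the tissue-nonspecific form. For chip against Transwell over both control media, ALPG was higher in the chip while ALPI was lower, the latter being the least stable call. On Transwell ALPG read 3.74, 4.00, 4.34 and 3.92 in TiO2 control medium and 5.01, 3.89, 3.82 and 3.91 in ZnO control medium. In the chip it read 4.84, 5.34, 5.35 and 5.45 in TiO2 control medium and 6.03, 6.00, 3.97 and 5.96 in ZnO control medium. Of the 16 chip arrays 14 lay above every Transwell array. Its log2 difference over both control media was 1.29 ± 0.232 (SE) with a limma adjusted p of 4.95e-05. ALPP at -0.49 (adjusted p 0.069) and ALPL at 0.21 (0.23) did not pass.

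With exposure, ALPG values were 6.69, 5.96, 5.82 and 5.66 with TiO2 and 6.23, 6.27, 5.98 and 6.12 with ZnO in the chip. The TiO2 arrays did not overlap with their control, at a log2 difference of 0.79, an unadjusted p of 0.0234 and an adjusted p of 0.485. With ZnO the difference was 0.66 with an adjusted p of 0.543, and control replicate 3 at 3.97 lay far below the other 3 control arrays. On Transwell the arrays read 3.97, 3.51 and 3.69 with TiO2 and 3.32, 4.26, 3.53 and 3.68 with ZnO. The differences were -0.28 and -0.46 and did not pass.

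**Figure D5:**
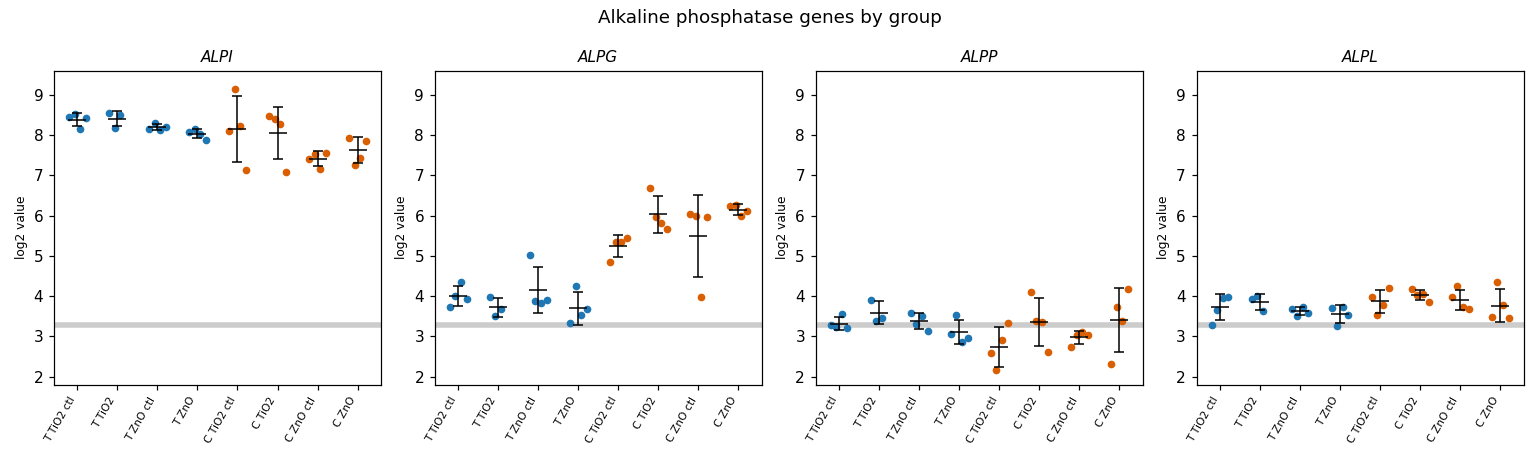
Log2 values of ALPI, ALPG, ALPP and ALPL by group on a shared axis; points are arrays (blue Transwell, orange chip), bars mean ± SD, and the grey band is the range of array medians. ALPG lies between 3.32 and 5.01 on Transwell and between 3.97 and 6.69 in the chip, while ALPI reaches lower values in the chip (7.09) than on Transwell (7.89).

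Related gene groups were tabulated for the same comparison, chip against Transwell over both control media, to place the members among other hydrolases. Over all genes 33.5% passed there, and 18.9% passed with a lower level in the chip. Counts of a list near these shares are not a trait of that list. Of 23 other surface peptidases 18 were measured. Of these 3 were higher and 5 lower in the chip, with a median log2 difference of 0.05. NAALADL1, an ileal dipeptidase of the glutamate carboxypeptidase family, was at -2.04, its relative NAALAD2 at -1.37 and the membrane serine proteases TMPRSS2 and TMPRSS4 at -0.85 and -0.50. The carboxypeptidase CPD was at 0.56, the endothelin-converting enzyme ECE1 at 0.25 and the serine protease PRSS8 at 0.22.

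Intracellular peptidases also went both ways. All 20 were measured, 7 were higher and 4 lower, with a median of 0.03. PEPD, which splits dipeptides ending in proline, was at -1.22, the antigen-trimming ERAP1 at -1.10, the dipeptidase CNDP2 at -0.76 and the lysosomal TPP1 at -0.68. NPEPPS was at 0.75, NLN at 0.55, RNPEP at 0.35 and PREP, an endopeptidase that cuts after proline, at 0.35. Among other surface phosphatases and nucleotide hydrolases, 9 of 10 were measured, 3 were higher and 2 lower. ENPP3 was at -1.24 and ENTPD8 at -0.93, and besides ALPG the 5'-nucleotidase NT5E at 0.44 and ENTPD2 at 0.43 were higher.

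Transporters that take up the products of these peptidases were divided evenly. All 11 were measured, 5 were higher and 5 lower, with a median of 0.03. SLC7A9 and SLC3A1, the light and heavy chains of the cystine and dibasic amino acid transporter, were at -2.13 and -1.64, the proton-coupled amino acid transporter SLC36A1 at -1.20 and the glutamate transporter SLC1A1 at -0.54. The proline transporter SLC6A20 was at 1.56, the sodium-proton exchanger SLC9A3 at 1.16, the trafficking partner CLTRN at 0.62 and SLC3A2 at 0.62. The di- and tripeptide transporter SLC15A1 passed too, at 0.39 with an adjusted p of 0.037.

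Of 18 intestinal transcription factors 15 were measured, 1 was higher and 11 lower, with a median of -0.61. HNF4A, listed here and among the enterocyte markers, was not among the measured genes. Values of the other HNF1 and HNF4 genes are not given here. MAF was at -1.85, GATA4 at -1.36, PRDM1 at -1.17 and VDR at -1.10, and KLF4 was higher at 0.69. CDX2, a master regulator of intestinal identity, was at -0.74, and CDX1 at 0.03 did not pass. Of the 13 enterocyte markers 1, KRT20, was higher and 10 were lower, with a median of -0.75. Sucrase-isomaltase, SI, averaged 7.95 over chip arrays and 11.3 over Transwell arrays. Of the 7 epithelial markers 4 were higher and 0 lower, with a median of 0.56. Of the stromal and immune markers 2 were higher and 3 lower. The part of these lists in the lower level of the members was not tested. In each of the 4 exposure comparisons 0 genes of any of these lists passed with limma.

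For each member the genes with the most similar profile were found by the root mean square difference of the 8 group means, each gene centred on its own mean, among 15180 genes with at least 1 group mean above the median of all arrays. This is a description over 8 groups that share their cultures across genes. ANPEP was nearest to F2 (0.129) and SLC6A4 (0.132), and MEP1A to F2 (0.0588) and RGN (0.0691). ALPI was nearest to APOC3 (0.0678) and TMEM163 (0.101), MEP1B to TMCO1-AS1 (0.065) and FGFR2 (0.0767), and XPNPEP2 to MS4A10 (0.187) and SERPIND1 (0.213). DPP4 was nearest to ATP6V1E2 (0.0386) and TMEM45B (0.0393), ACE to SPDYC (0.059) and HEMK1 (0.0597), ENPEP to SSBP2 (0.0721) and MADCAM1 (0.0867), and MME to AZI2 (0.0225) and SRP54 (0.0262). Among the members themselves ANPEP and MEP1A were the closest pair that changed with the system by about 1 or more, at 0.133.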

How the data were processed

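RNA of Caco-2 cells was measured on 31 Affymetrix whole-transcript arrays (100 ng labelled, per the labels' protocols). The authors deposited log2 values that had been through RMA, per the submitters' processing notes, with version, array annotation and genome build not given in the sources used here. This step quantile-normalises the arrays, so a shift common to all genes would not be seen. The table held 53617 probe sets with 0 missing values, from 0.3615 to 13.5. Of these 23871 named 1 gene, 1842 several and 27904 none. Only probe sets with 1 gene were used, the brightest of 632 genes with several, with symbols updated through the RefSeq table of GRCh38.p14 (22569 matched). All columns matched a sample by title.

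Each comparison was a contrast in limma 3.58.1 (R 4.3.3), with 1 mean per group, all 8 groups in the fit, 23 residual degrees of freedom and a prior of 4.77, adjusted with Benjamini-Hochberg over 22395 genes within each comparison (threshold 0.05). Named genes were all 9 members, up to 4 per direction of each list with the largest change among those that passed for chip against Transwell over both control media, and the 2 nearest profiles per member. Marker genes, the alkaline phosphatases and CDX1, CDX2 and SLC15A1 were added with their values known. The members and lists were chosen with earlier results of these data known, and lists are described by counts and medians without a test. Promoter windows came from the RefSeq table of GRCh38.p14. Alternatives were a trend or robust prior, array weights, the spread of the compared groups alone, the replicate number as a block, array medians aligned, a second quantile normalisation, dim genes left out, the mean of a gene's probe sets, all probe sets tested, each array left out in turn, and both replicates 4 of the chip TiO2 set left out.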

Additional observations from a re-analysis of the deposited data

Results flagged for a closer look

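In groups of 4 arrays, 11 of the 70 checked (the members and ALPG) held 1 array farther from the others than Dixon's 95% limit allows. Chance alone gives about 1 in 20, which is fewer than were marked. The groups checked share arrays across genes, so 1 odd array can be marked several times. Whether the count exceeds chance was not tested. In the chip ZnO control group, replicate 3 was marked in 3 genes: ANPEP at 8.03 against 7.42 to 7.52 in the others, XPNPEP2 at 6.44 against 5.18 to 5.30, and ALPG at 3.97 against 5.96 to 6.03. In the chip TiO2 group, replicate 4 was low for ALPI at 7.09 against 8.27 to 8.47. In the chip ZnO group, replicate 4 was high for ENPEP at 3.73 against 2.80 to 2.91.

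On Transwell, ZnO replicate 4 was low for ANPEP at 8.89 against 9.26 to 9.34. In the Transwell ZnO control group, replicate 1 was low for XPNPEP2 at 8.71 against 8.97 to 8.99 and high for ALPG at 5.01 against 3.82 to 3.91. MME, which was not above background, was high in chip TiO2 replicate 3 at 3.46 against 2.82 to 2.86, in chip TiO2 control replicate 2 at 3.41 against 2.81 to 2.86, and in Transwell TiO2 control replicate 1 at 2.89 against 2.64 to 2.67. What sets these arrays apart was not tested.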

How the results depend on the processing

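Under the alternatives, 508 member values belonged to differences that had passed, and 465 of them kept their call, 43 lost it and 0 changed sign. Of 2070 values of differences that had not passed, 145 changed sign without passing and 23 passed. Members that passed, as counts of 9, changed as follows. Chip against Transwell over both control media gave 6, and 5 with the spread of the compared groups alone, with array medians aligned or with all probe sets tested. In TiO2 control medium it gave 4, and 3 with the spread of the compared groups or medians aligned, and in ZnO control medium 6, and 5 with all probe sets tested. After TiO2 it gave 4, 3 with the replicate block, medians aligned or all probe sets tested, and 2 with the spread of the compared groups alone. The dependence of the system difference on control medium gave 0, and 1 with a trend prior, with the replicate block, with array medians aligned or with dim genes left out, 2 with array weights and 3 without both replicates 4 of the chip TiO2 set. ZnO control against TiO2 control gave 0 in each system, and 1 on Transwell with the spread of the compared groups, and in the chip 2 with array weights and 4 without both replicates 4. The number of genes passing in that chip comparison was 13, with 58 under array weights, 20 with dim genes left out, 0 with the spread of the compared groups or with all probe sets tested, and 388 without both replicates 4. Both replicates 4 were picked from these same data, as given above. ZnO against control in the chip gave 61 genes, with 103, 25, 0, 99 and 37 under the trend prior, array weights, the spread of the compared groups, dim genes left out and all probe sets. On Transwell the control media gave 1486 genes and 2834 with array weights. With all probe sets tested, 11318 rows passed for chip against Transwell over both control media. For the other settings no count over all genes is printed, so these changes cannot be read as particular to the members.

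Leaving out 1 array at a time gave 5 to 6 members over both control media (7144 to 7530 genes). It gave 3 to 4 in TiO2 control medium (4444 to 5062 genes) and 5 to 6 in ZnO control medium (5500 to 5880 genes). After TiO2 it gave 2 to 4 (3073 to 3891 genes) and after ZnO 5 to 5 (6035 to 6395 genes). The same fits gave 0 to 1 members for the dependence on control medium (309 to 734 genes). They gave 0 to 4 for the control media in the chip (0 to 317 genes) and 0 to 0 for every other comparison. Of the latter, the control media on Transwell gave 845 to 1275 genes and ZnO in the chip 9 to 144. The rest gave at most 23 genes. In the replicate block fit ANPEP passed for the dependence on control medium (adjusted p 0.0422) and DPP4 after TiO2 did not (0.0507), and no other member changed its call. Same-numbered arrays had correlations of their deviations from -0.177 to 0.103, so the numbers were not taken to pair the samples. The causes of these changes were not tested. Levels near the array medians limit what can be said of ENPEP, MME and, in the chip, MEP1B.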
